A study of Homo sapiens with 4 samples.

Results

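The genes described here are 9 neuroendocrine genes of NCI-H1048 cells: the transcription factors NEUROD1 and INSM1, the granule proteins CHGB and SCG2, the vesicle membrane proteins SYP and SYT1, and the surface or cytosolic markers NCAM1, DLL3 and UCHL1. They were chosen by symbol, all 9 were found among the 35979 symbols of the series, and each had 1 row. NCI-H1048 is an established human line of small cell lung cancer that the study assigns to the tuft cell-like subtype, named after rare chemosensory epithelial cells and dependent on the transcription factor POU2F3. Poly(A) RNA was sequenced from 4 libraries: COLCA2 knockout cells in 2 libraries with a different guide RNA (gRNA) each, POU2F3 knockout cells in 1 library, and wild-type cells with a non-targeting gRNA in 1 library, called the control library below. All of the cells received a gRNA, no other treatment is labelled, and the sources used here do not say whether a knockout was a clone or a pool.

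Small cell lung cancer is usually a neuroendocrine tumour. Neuroendocrine cells store hormones and peptides in dense-core granules and release them when calcium enters the cell. Basic helix-loop-helix factors such as NEUROD1, together with the zinc-finger repressor INSM1, switch this programme on in other subtypes, and the tuft cell-like subtype is known for showing little of it.

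Reads assigned to genes ranged from 21587741 to 29632382 per library. The targeted gene POU2F3 held 9.92% of its control level in the POU2F3 library, and COLCA2 RNA held 55.8% and 63.4% of its level with COLCA2 guides 1 and 2. Of the 8 tuft markers examined, 6 had normalized counts between 458 and 17848 in the control library (POU2F3, AVIL, ASCL2, GFI1B, SOX9 and BMX), while TRPM5 had at most 2 reads and CHAT at most 11 reads in any library. In the POU2F3 library COLCA2 held 24.9%, and POU2F3 held 25.2% and 16.1% with the COLCA2 guides. YAP1, which marks another subtype, had normalized counts of 776 in the control library, 2795 and 3475 with the COLCA2 guides, and 3612 with the POU2F3 guide. Whether these differences had a part in the results below was not tested. The granule protein CHGA had at most 3 reads in any library. Every ratio to the control library shares that 1 library. No such ratio has a replicate check on its control side, and the only error within a group is the difference of the COLCA2 libraries, in which guide, culture and library effects are mixed. The 95% intervals given below are exact (Clopper-Pearson) and cover counting error only. Fewer cells expressing a gene and less RNA per cell cannot be told apart in these bulk libraries.

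Sequence upstream of the RefSeq start is shown for the most abundant member, UCHL1, and for SYT1, which was higher in each targeted library. Promoters of 4 of the 9 members were matched in RefSeq (GRCh38.p14). The 250 bases before the RefSeq start of UCHL1 lie at chr4:41256678-41256927 on the plus strand, and those of SYT1 at chr12:78864524-78864773 on the plus strand. Both windows lie inside the GENCODE gene spans given below, which begin upstream of them. Capitals mark an E-box (CANNTG, the motif of basic helix-loop-helix factors) and a TATA match (TATAAA), searched on both strands together with the octamer ATGCAAAT, which POU2F factors bind.
UCHL1: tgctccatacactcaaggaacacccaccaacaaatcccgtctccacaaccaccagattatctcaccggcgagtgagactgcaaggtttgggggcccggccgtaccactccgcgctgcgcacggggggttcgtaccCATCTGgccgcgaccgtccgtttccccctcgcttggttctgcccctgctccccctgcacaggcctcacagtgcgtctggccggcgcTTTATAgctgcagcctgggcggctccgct
SYT1: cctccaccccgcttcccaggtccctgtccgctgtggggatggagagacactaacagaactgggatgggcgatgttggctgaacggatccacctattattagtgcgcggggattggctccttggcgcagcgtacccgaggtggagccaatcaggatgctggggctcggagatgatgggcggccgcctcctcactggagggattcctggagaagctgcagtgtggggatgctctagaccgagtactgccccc

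The UCHL1 window held 1 E-box, which starts 115 bases before the RefSeq start, and 1 TATA match 29 bases before that start. The TATA match, printed as TTTATA, reads TATAAA on the strand opposite to the gene. The SYT1 window held none of the 3 motifs, and neither did the windows of NEUROD1 and SYP. Over the 35114 RefSeq windows of this length, 61.8% held an E-box, 10.7% a TATA match and 1.63% an octamer. The 4 member windows were between 62.0% and 74.0% G and C, against a median of 58.0% over all windows.

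Levels were compared between genes per length, as normalized counts divided by the longest annotated transcript and scaled so that all genes sum to 1000000 in a library (length-scaled units). In the control library UCHL1 stood at 1427 units, higher than 99.5% of the genes past the expression minimum, and NCAM1 stood at 74.6 units, higher than 83.5% of them. DLL3 followed at 5.41, INSM1 at 4.57 and SYP at 3.26. CHGB stood at 0.98, SCG2 at 0.41, SYT1 at 0.13 and NEUROD1 at 0.11. UCHL1 and NCAM1 made up 98.6% of the members' reads in the control library. They kept the top places in all 4 libraries, also with the median transcript length, an alternative chosen after the data had been seen. The order of DLL3, INSM1 and SYP is not settled, because SYP passed both of the others in the control library with the median length.

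**Figure D1:**
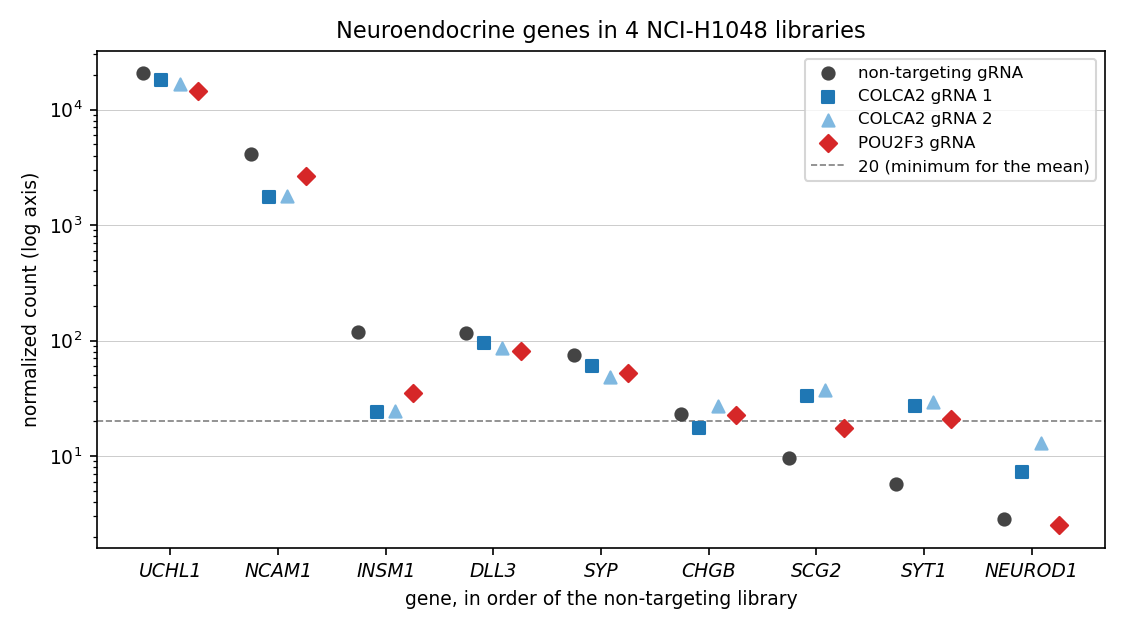
Normalized counts (log axis) of the 9 genes, 1 point per library, ordered by the control library, with a dashed line at 20. UCHL1 lies at 14543 or more and NCAM1 at 1765 or more in every library, INSM1 drops from 118 to between 23.8 and 35.3 in the targeted libraries, and NEUROD1 stays below the line in all 4.

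A gene had to reach a mean normalized count of 20 over the 4 libraries to be counted, and a change was called at 2-fold of log2(normalized count + 1), a scale on which folds of low genes come out too small. NEUROD1 missed that minimum. SYT1 passed it only through the targeted libraries, and SCG2 only through the COLCA2 libraries. Each had to be higher there, and their calls support nothing by themselves. Of the 8 members past the minimum, 1 was at least 2-fold lower with the POU2F3 guide (INSM1), where 3.05% of all 14940 genes were, and 1 was at least 2-fold higher (SYT1), where 6.73% of all genes were. With both COLCA2 guides 2 were lower (INSM1 and NCAM1), against 2.02% of all genes, and 2 were higher (SYT1 and SCG2), against 5.79%. The 6 members that had at least 20 in the control library included none that was 2-fold higher in either comparison. Between the COLCA2 guides 0 members were 2-fold apart, where 1.05% of all genes were lower and 1.16% higher with guide 2.

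Among the regulators, INSM1, a zinc-finger repressor required for neuroendocrine differentiation, was lower in each targeted library. INSM1 (ENSG00000173404; GRCh38 chromosome 20, 20368121 to 20370949, plus strand) had a normalized count of 118 in the control library, 23.8 with COLCA2 guide 1, 24.7 with COLCA2 guide 2 and 35.3 with the POU2F3 guide. The control library was the highest of the 4 by a wide margin, and the COLCA2 guides were nearly equal. These values rest on 124, 23, 21 and 42 reads in the same order. The COLCA2 libraries held 20.1% and 20.9% of the control level, which averaged -2.24 ± 0.034 (SD, n = 2) as a log2 ratio. The counting interval of the ratio ran from 0.123 to 0.316 for guide 1 and from 0.125 to 0.333 for guide 2. With the POU2F3 guide the ratio was 0.298, with an interval of 0.205 to 0.426.

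The recovered reads of all genes were also tested with edgeR's quasi-likelihood test and Benjamini-Hochberg adjustment. Only the COLCA2 pair supplies its 1 residual degree of freedom. The POU2F3 test therefore takes over the spread of that pair and is a comparison of libraries rather than conditions. In the COLCA2 test the control side is also 1 library, for which the edgeR test has no spread. By this test INSM1 had an adjusted p of 0.0075 with COLCA2 and 0.049 with the POU2F3 guide. The edgeR test called 7.51% of all genes lower with COLCA2 and 3.98% lower with the POU2F3 guide.

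NEUROD1, the factor that names a neuroendocrine subtype of this cancer, was too low to read. NEUROD1 (ENSG00000162992; chromosome 2, 181673088 to 181680876, minus strand) had 3 reads in the control library, 7 with COLCA2 guide 1, 11 with COLCA2 guide 2 and 3 with the POU2F3 guide. The POU2F3 and control libraries were equal in reads, and both COLCA2 libraries had more. The ratio to the control library was 2.53 with guide 1, with a counting interval of 0.58 to 15.2, and 4.52 with guide 2, with an interval of 1.19 to 25.2. The gene also overlaps CERKL by 7578 bp on the same strand. No direction is given for it. Nothing in the labels says that the libraries came from separate cultures. The p-values given here rest on the spread between the COLCA2 libraries alone, and the control and POU2F3 libraries add none.

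Of the granule cargo proteins, CHGB, a chromogranin that helps to pack dense-core granules, did not differ between libraries beyond counting error, and SCG2, a secretogranin cleaved into the peptide secretoneurin, was higher with the COLCA2 guides. CHGB (ENSG00000089199; chromosome 20, 5911430 to 5925361, plus strand) had normalized counts of 22.9 in the control library, 17.6 and 27.0 with COLCA2 guides 1 and 2, and 22.7 with the POU2F3 guide. The 2 COLCA2 libraries lay on either side of the others. From 17 to 27 reads per library, the counting intervals allowed ratios from 0.55 to 1.79 for the POU2F3 guide, from 0.39 to 1.49 for guide 1 and from 0.64 to 2.18 for guide 2.

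SCG2 (ENSG00000171951; chromosome 2, 223596940 to 223602503, minus strand) had 10 reads in the control library, 32 with each COLCA2 guide and 21 with the POU2F3 guide. Its normalized counts were 9.55, 33.2 with guide 1, 37.6 with guide 2 and 17.6 with the POU2F3 guide. The control library was the lowest, the COLCA2 libraries were the highest, and the POU2F3 guide lay between them. SCG2 passed the expression minimum only through the COLCA2 libraries, so it had to be higher there. The bounds and edgeR values that follow therefore support nothing by themselves. The mean log2 ratio with the COLCA2 guides was 1.78 ± 0.13 (SD, n = 2), and the lower bounds of the ratio were 1.67 and 1.89. With the POU2F3 guide the ratio was 1.85, and its interval of 0.83 to 4.39 includes 1. The edgeR test gave SCG2 an adjusted p of 0.058 with COLCA2 and 0.43 with the POU2F3 guide.

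The vesicle membrane genes were SYP and SYT1. SYP encodes synaptophysin, a protein of small synaptic-like vesicles and a routine diagnostic marker. SYP (ENSG00000102003; chromosome X, 49187804 to 49200259, minus strand) had normalized counts of 74.5 in the control library, 60.1 and 48.2 with COLCA2 guides 1 and 2, and 52.0 with the POU2F3 guide. The control value was the highest, and the POU2F3 guide lay between the COLCA2 guides. The counting intervals of the ratio ran from 0.49 to 0.99 for the POU2F3 guide, from 0.56 to 1.15 for guide 1 and from 0.43 to 0.96 for guide 2. The mean log2 ratio with the COLCA2 guides was -0.46 ± 0.22 (SD, n = 2), that with the POU2F3 guide was -0.51, and the edgeR test gave adjusted p-values of 0.46 and 0.54.

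SYT1, synaptotagmin 1, is the calcium sensor that triggers fast vesicle fusion. SYT1 (ENSG00000067715; chromosome 12, 78863993 to 79452008, plus strand) had 6 reads in the control library, 26 and 25 with COLCA2 guides 1 and 2, and 25 with the POU2F3 guide. The normalized counts were 5.73, 27.0, 29.4 and 21.0, so the 3 targeted libraries lay close together above the control one. The ratio was 4.70 with guide 1, with an interval of 1.89 to 14.0, and 5.13 with guide 2, with an interval of 2.05 to 15.3. With the POU2F3 guide it was 3.66, with an interval of 1.47 to 10.9. The mean log2 ratio with the COLCA2 guides was 2.12 ± 0.086 (SD, n = 2). The edgeR test gave an adjusted p of 0.044 with COLCA2, where it called 11.4% of all genes higher, and 0.13 with the POU2F3 guide, where it called 8.45% higher. A change that rests on 6 reads in 1 control library leaves its size poorly known, and even in the targeted libraries SYT1 stood at no more than 0.63 length-scaled units. SYT1 passed the expression minimum only through the targeted libraries, so it had to be higher there. The ratios, intervals and edgeR values above therefore support nothing by themselves.

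**Figure D2:**
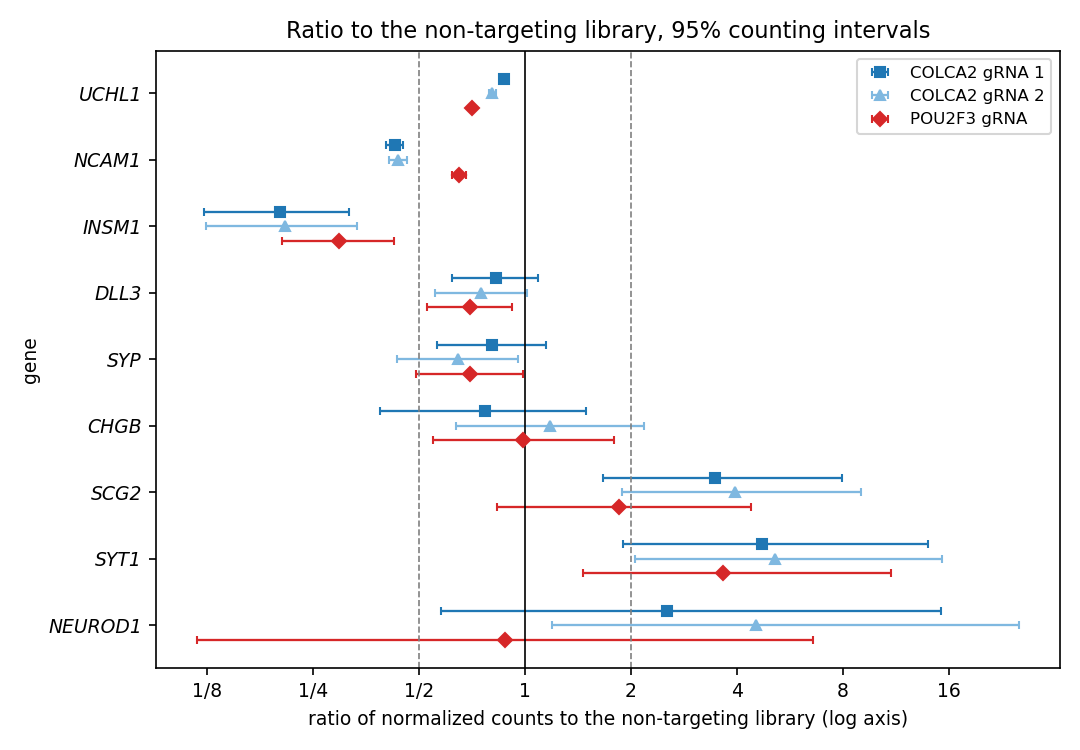
Ratio of normalized counts to the control library (log axis) for each gene, with 1 point per targeted library, bars for the 95% exact counting interval, a solid line at 1 and dashed lines at 2-fold. INSM1 lies wholly below the 2-fold line in all 3 libraries, NCAM1 below it with the COLCA2 guides but not with the POU2F3 guide, and the bars of NEUROD1 are the widest.

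Of the surface and cytosolic markers, NCAM1 (CD56), a neural adhesion molecule used to diagnose neuroendocrine tumours, had the most reads behind a 2-fold call. NCAM1 (ENSG00000149294; plus strand of chromosome 11, 112961247 to 113278436) had normalized counts of 4129 in the control library, 1765 with COLCA2 guide 1, 1797 with COLCA2 guide 2 and 2679 with the POU2F3 guide. The COLCA2 guides were nearly equal, and the POU2F3 guide lay between them and the control library. The COLCA2 libraries held 42.7% and 43.5% of the control level, which averaged -1.21 ± 0.019 (SD, n = 2) as a log2 ratio. The POU2F3 library held 64.9% of it, with a counting interval of the ratio of 0.62 to 0.68. By the edgeR test the adjusted p was 0.00025 with COLCA2 and 0.012 with the POU2F3 guide. Even at its lowest, NCAM1 stood at 29.3 length-scaled units.

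NCAM1 lies on the same chromosome as both targeted genes, 1652512 bp beyond the end of COLCA2 and 6958204 bp before POU2F3. Of the 13 other genes past the minimum within 1000000 bp of NCAM1, 0 were at least 2-fold lower with the POU2F3 guide or with both COLCA2 guides, and 1 was higher in each comparison. The shares of all genes were 3.05% lower and 6.73% higher with the POU2F3 guide, and 2.02% and 5.79% with both COLCA2 guides. With 13 genes, counts of 0 and 1 cannot be told from these shares. The median log2 ratio of the 13 genes was 0.078 with the COLCA2 guides and 0.028 with the POU2F3 guide. Whether the position of NCAM1 had a part in its values was not tested.

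DLL3, an inhibitory Notch ligand that is mostly held inside the cell and is a drug target in this cancer, was only slightly lower in the targeted libraries. DLL3 (ENSG00000090932; chromosome 19, 39498895 to 39508481, plus strand) had normalized counts of 116 in the control library, 95.4 and 87.0 with COLCA2 guides 1 and 2, and 80.6 with the POU2F3 guide. All 3 targeted libraries lay below the control one. The mean log2 ratio with the COLCA2 guides was -0.34 ± 0.092 (SD, n = 2), and that with the POU2F3 guide was -0.51. The ratio with the POU2F3 guide was 0.70, with a counting interval of 0.53 to 0.92, and both intervals with the COLCA2 guides reached above 1. The edgeR test gave adjusted p-values of 0.49 with COLCA2 and 0.42 with the POU2F3 guide.

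UCHL1 (PGP9.5), a deubiquitinating enzyme of neurons and neuroendocrine cells, was abundant in every library. UCHL1 (ENSG00000154277; chromosome 4, 41256413 to 41268455, plus strand) had normalized counts of 20599 in the control library, 17993 and 16656 with COLCA2 guides 1 and 2, and 14543 with the POU2F3 guide. The control library was the highest and the POU2F3 guide the lowest. The mean log2 ratio with the COLCA2 guides was -0.25 ± 0.079 (SD, n = 2), and that with the POU2F3 guide was -0.50, a ratio of 0.71. The edgeR test gave an adjusted p of 0.091 with COLCA2 and 0.022 with the POU2F3 guide. The COLCA2 guides' own ratio was 0.93, with a counting interval of 0.91 to 0.95, so libraries of 1 group already differed by more than counting error. Antisense genes that were not analysed here overlap UCHL1, SYP, SYT1 and NCAM1, and the sources used here do not say whether the counting used the strand, so the values of these 4 genes are uncertain to that extent.

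The POU2F3 guide and the COLCA2 guides were also set against each other, which leaves the control library out. No member was 2-fold apart from both COLCA2 guides in either direction, where 0.924% of all genes were lower and 0.442% higher with the POU2F3 guide. NCAM1 was higher with the POU2F3 guide by a ratio of 1.52 over guide 1 and 1.49 over guide 2, with counting intervals of 1.43 to 1.61 and 1.40 to 1.59. The COLCA2 guides themselves differed by a ratio of 1.02, and the edgeR test of the difference gave an adjusted p of 0.066. SCG2 was lower with the POU2F3 guide, at 53.1% of guide 1 and 46.8% of guide 2. It passed the expression minimum only through the COLCA2 libraries, so its lower level here supports nothing by itself. INSM1 was 1.48 and 1.43 times its level with guides 1 and 2, with intervals that include 1 and an adjusted p of 0.60. In this contrast edgeR called 0 of the members, against 0.234% of all genes lower and 0.107% higher, and NCAM1 and UCHL1 had unadjusted p-values of 0.00035 and 0.028.

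Other neuroendocrine genes were taken from 5 lists that contain the members, with 70 further genes. The lists were chosen with earlier results of these data known, so their counts and medians are no independent support. Of the 20 transcription factors, 9 passed the minimum, and 4 of these (INSM1, ISL1, ST18 and PROX1) were at least 2-fold lower with the POU2F3 guide and with both COLCA2 guides, while 0 were higher. Over all genes 3.05% were lower and 6.73% higher with the POU2F3 guide, and 2.02% and 5.79% with both COLCA2 guides. The edgeR test called the same 4 lower with the POU2F3 guide and these and POU3F2 with COLCA2, 5 in all, and 0 higher, where it called 3.98% of all genes lower with the POU2F3 guide and 7.51% with COLCA2. These 9 genes had a median log2 ratio of -0.53 with the POU2F3 guide and -1.35 as the mean over the COLCA2 guides, beside -0.0037 and -0.0086 over all genes. PROX1, a homeobox factor, had normalized counts of 2383 in the control library, 826 and 655 with COLCA2 guides 1 and 2, and 610 with the POU2F3 guide. ISL1, a LIM homeobox factor of neurons and endocrine cells, had 925, 339, 338 and 385 in the same order, and ST18, a zinc-finger factor, had 313, 78.8, 107 and 76.4. LHX2, another LIM homeobox factor, had log2 ratios of 0.0089 with the POU2F3 guide and 0.095 and -0.13 with the COLCA2 guides. In the list 5 genes had at most 3 reads in every library.

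Of the 13 genes for granule cargo and its maturation, 7 passed the minimum, and none was 2-fold lower. Over all genes 3.05% were lower with the POU2F3 guide and 2.02% with both COLCA2 guides. SCG5 and PTPRN2 were higher with the POU2F3 guide, and SCG5 and SCG2 with both COLCA2 guides, 2 of 7 in each, against 6.73% and 5.79% of all genes. SCG2 passed the minimum only through the COLCA2 libraries. The medians were 0.81 with the POU2F3 guide and 0.38 with the COLCA2 guides, beside -0.0037 and -0.0086 over all genes. Both list medians include SCG2, whose high values with the COLCA2 guides follow from the choice. SCG5, the chaperone of the prohormone convertase PCSK2, had normalized counts of 30.6 in the control library, 95.4 and 103 with COLCA2 guides 1 and 2, and 102 with the POU2F3 guide, summed over 3 annotated rows. The processing enzymes CPE, which trims peptides, and PAM, which amidates them, had log2 ratios of 0.42 and 0.81 with the POU2F3 guide. With guides 1 and 2 CPE had 0.22 and 0.17, and PAM had 0.85 and 0.91. PCSK1N, an inhibitor of the convertase PCSK1, had 0.20 with the POU2F3 guide and 0.09 and 0.13 with the COLCA2 guides, whereas PCSK1 itself had at most 1 read in any library. The edgeR test called 3 genes of the list higher with the POU2F3 guide and 2 with COLCA2, against the same shares of all genes as given for SYT1.

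Of the 25 genes for vesicle membranes and regulated exocytosis, 19 passed the minimum. Their medians were 0.0062 with the POU2F3 guide and 0.18 with the COLCA2 guides, beside -0.0037 and -0.0086 over all genes. SYT1 was higher and SYT16 lower with the POU2F3 guide, and SYT1, SYT16 and RAB27B were higher with both COLCA2 guides, 3 of 19. Over all genes 6.73% were higher and 3.05% lower with the POU2F3 guide, and 5.79% were higher with both COLCA2 guides. SYT1 passed the minimum only through the targeted libraries, and SYT16 only through the COLCA2 libraries. The medians include both genes. RAB27B, a GTPase that docks secretory granules, had normalized counts of 218 in the control library, 471 and 542 with COLCA2 guides 1 and 2, and 369 with the POU2F3 guide. SYT16 rests on 7 reads in the control library, 35 and 56 with the COLCA2 guides and 0 with the POU2F3 guide, too few for a fold with the latter. Of the most abundant genes, SV2A, a vesicle glycoprotein, had log2 ratios of -0.025 with the POU2F3 guide and -0.10 and -0.12 with the COLCA2 guides. VAMP2, the vesicle SNARE, had 0.27, 0.29 and 0.14, and RAB3B, a vesicle GTPase, had 0.37, 0.36 and 0.43 in the same order. By edgeR 1 gene was higher with the POU2F3 guide (SYT13) and 4 with COLCA2 (SYT1, SYT16, RAB3B and RAB27B), of 19, against 8.45% and 11.4% of all genes, and 0 were lower in either comparison.

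Of the 15 surface and cytosolic markers, 9 passed the minimum, with medians of -0.48 with the POU2F3 guide and -0.32 with the COLCA2 guides. L1CAM, a neural adhesion molecule, and CD24, a surface glycoprotein that epithelial cells also carry, were higher in both comparisons, and NCAM1 was the only gene of the list that was 2-fold lower with both COLCA2 guides, while 0 were with the POU2F3 guide. The shares of all genes that were 2-fold higher were 6.73% with the POU2F3 guide and 5.79% with both COLCA2 guides. The shares that were 2-fold lower were 3.05% with the POU2F3 guide and 2.02% with both COLCA2 guides. L1CAM had normalized counts of 76.4 in the control library, 645 and 653 with COLCA2 guides 1 and 2, and 441 with the POU2F3 guide. CD24 had 6082, 16750, 19707 and 20658 in the same order. The neuronal enolase ENO2 had 7751, 5351, 5118 and 4640, and the neuronal kinesin KIF1A had 29383, 24659, 22613 and 21119. As for UCHL1, the control library was the highest for both genes and the POU2F3 guide the lowest. By edgeR 4 genes of the list were lower with the POU2F3 guide (NCAM1, UCHL1, ENO2 and KIF1A) and 4 with COLCA2 (NCAM1, ENO2, KIF1A and GNG4), against 3.98% and 7.51% of all genes. It called 2 higher in each, against 8.45% and 11.4%.

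All 6 genes listed as repressors of the programme passed the minimum. HES1, the Notch effector that represses neurogenic factors, was higher, with normalized counts of 1205 in the control library, 5700 and 5868 with COLCA2 guides 1 and 2, and 6436 with the POU2F3 guide. REST, which silences neuronal genes outside neurons, had 768, 627, 767 and 966, so the COLCA2 guides lay at or below the control level and the POU2F3 guide above it. RCOR2, a corepressor, had 337, 119, 134 and 200 and was 2-fold lower with both COLCA2 guides, as were 2.02% of all genes. The general corepressor genes HDAC1 and SIN3A had log2 ratios between -0.19 and 0.10 in every targeted library. The list's medians were 0.11 with the POU2F3 guide and -0.085 with the COLCA2 guides, and edgeR called HES1 higher in both comparisons (8.45% of all genes with the POU2F3 guide and 11.4% with COLCA2) and RCOR2 lower with COLCA2 (7.51% of all genes).

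**Figure D3:**
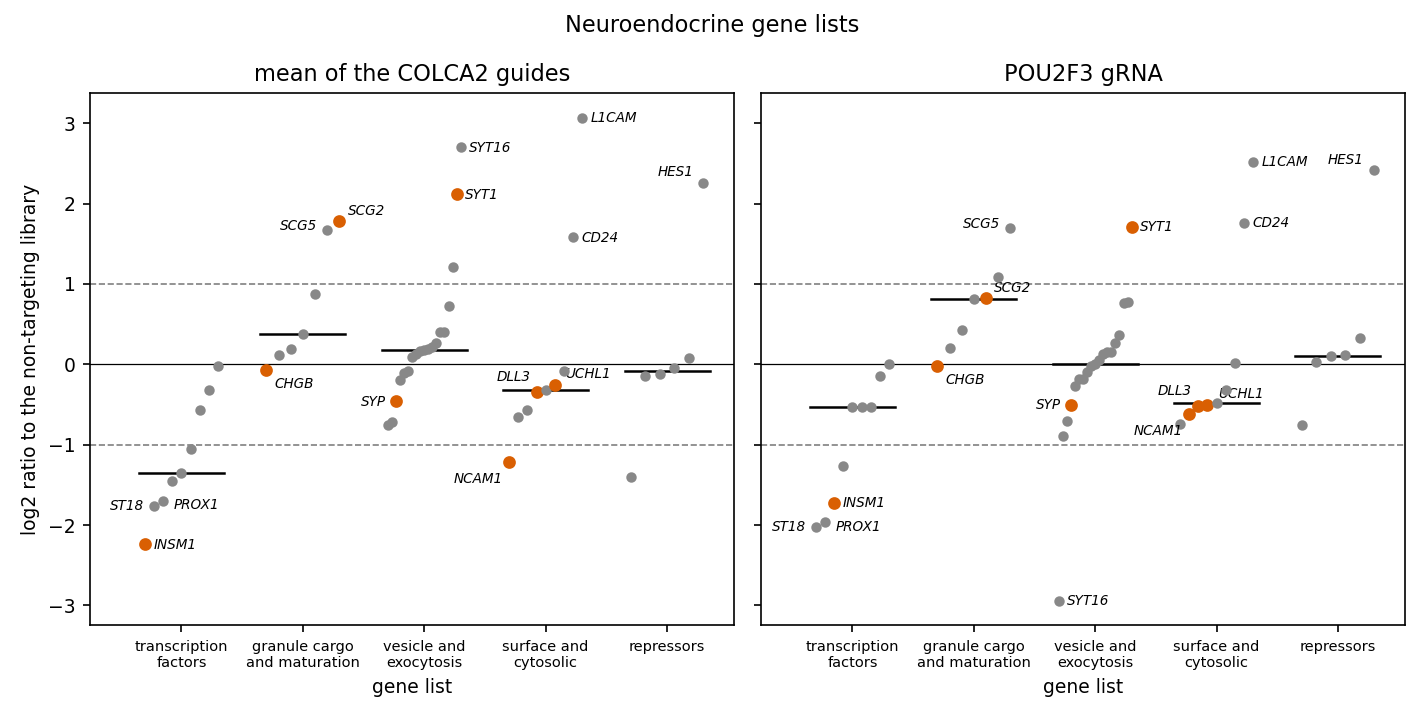
Log2 ratio to the control library of each list gene past the minimum, for the mean of the COLCA2 guides (left) and the POU2F3 guide (right), with members in orange, a bar at each list's median and dashed lines at 2-fold. The transcription factors lie at or below about 0 in both panels, with INSM1, ST18 and PROX1 among the lowest, while SCG2, SCG5, SYT1 and L1CAM lie above 0.

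The genes most like a member were sought by Euclidean distance between log2 profiles over the 4 libraries, each centred on its mean, for the 5 members with at least 20 reads in every library. INSM1 was nearest to IPCEF1, NREP and COL2A1, at distances of 0.26, 0.28 and 0.36, and 0 genes lay within 0.1. NCAM1 was nearest to ZNF697, KIF12 and PLCXD2, at 0.070, 0.077 and 0.097, and 4 genes lay within 0.1. The flatter profiles of SYP, DLL3 and UCHL1 had 33, 102 and 100 genes within 0.1. Their nearest genes were ZNF772, ART5 and FGF11 for SYP, FBXL6, KIF1A and RPIA for DLL3, and SNRPE, EIF4EBP1 and TNFRSF10A for UCHL1. The number of genes within a fixed distance also depends on the size of a profile and on counting error, so these numbers are not compared between members.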

How the data were processed

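The deposited files give 1 normalized count per gene, per the file headers, which is a linear signal. Per the submitters' processing notes, Salmon, DESeq2 and build hg38 were used; versions, annotation and strand are not given in the sources used here. Division by the value of 1 read, taken as the smallest value above 0, gave whole reads for 100% of genes in every library (within 0.01 of a read). The recovered factors (0.850 to 1.19) equalled median-of-ratios size factors computed here from the 38145 deposited rows, so the 4 tables share 1 scale. Salmon estimates counts, so rounding before normalization remains possible.

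Rows of a symbol were summed, and genes with a mean of at least 20 were kept (14940). Log2 ratios used a pseudocount of 1 and a 2-fold threshold without a test, because 2 of the groups hold 1 library. With edgeR 4.0.16 on the recovered reads (3 groups, TMM, quasi-likelihood test), 1858 genes were called for POU2F3, 2831 for COLCA2 and 51 between them at an adjusted p of 0.05. Positions and transcript lengths come from GENCODE release 29 (GRCh38); lengths were found for 89.7% of rows. Ratio intervals are exact 95% conditional binomial intervals, and they treat reads as independent, though no molecular identifiers are mentioned. Alternatives changed the fold threshold, pseudocount, scaling, minimum, row choice, guides and test. Scripts were tested on simulated data.

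Named genes are the members, from each list the 3 most abundant other genes and up to 3 with the largest falls and rises called in all targeted libraries, and the 3 genes nearest each member. PTPRN2, SYT13, SYT16, RAB27B, POU3F2, GNG4, RCOR2, PCSK1 and REST were named after their values were seen. The members and lists were chosen with earlier results of these data known.
One further marker is not reported here.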

Additional observations from a re-analysis of the deposited data

How the results depend on the processing

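No paired analysis was possible because only COLCA2 has more than 1 library. Scaling to equal totals or by TMM and a pseudocount of 0.1 changed none of the member counts. Taking the row with the highest mean could not change them, because each member has 1 row. In the order of POU2F3 gRNA lower and higher and COLCA2 lower and higher, the counts were 1, 1, 2 and 2. They became 2, 2, 2 and 2 at 1.5-fold, where 1149, 1822, 901 and 1451 of all 14940 genes were called, and 0, 0, 1 and 1 at 4-fold, where 113, 365, 44 and 346 were. They became 0, 0, 1 and 0 with a minimum of 100, which only NCAM1 and UCHL1 pass of the members. At that minimum 233, 631, 177 and 580 of 12159 genes were called. A pseudocount of 10 left 0 members higher with POU2F3 gRNA, since SYT1 then had a log2 ratio of 0.98. Of all 14940 genes, 874 were higher in that setting. The edgeR test gave 3 lower (INSM1, NCAM1 and UCHL1) and 0 higher with POU2F3 gRNA, and 1 higher with COLCA2 (SYT1). The shares of all genes that the edgeR test called lower are given with INSM1 above, and those called higher with SYT1. SYT1 passed the minimum only through the targeted libraries, so its call supports nothing by itself. Between POU2F3 gRNA and the COLCA2 guides, 0 members were lower. SCG2 made this 1 at 1.5-fold, where 373 of all 14940 genes were lower. NEUROD1 made it 1 without a minimum, where 791 of 35979 genes were lower. Without a minimum NEUROD1 also brought the members higher with COLCA2 to 3, where 1857 of 35979 genes were higher. Leaving out a COLCA2 guide gave 0 to 1 lower between POU2F3 gRNA and the COLCA2 guides. The 1 was SCG2 without gRNA 1, where 268 of 14940 genes were lower. SCG2 passed the minimum only through the COLCA2 libraries, so its calls in this contrast support nothing by themselves. Of 108 values of single genes under other scalings or pseudocounts, 89 moved by less than the SD between the guides and 19 by more. Leaving out a guide moves a mean of 2 by less than their SD in any case. It changed 3 signs, all at CHGB or SYP, neither of which was called.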

Other observations

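Synaptotagmins other than SYT1, named after their values were seen, were read in the same libraries. Of 17 SYT genes, 12 passed the minimum; 3 were at least 2-fold higher and 1 lower with the POU2F3 guide, and 4 were higher and 0 lower with both COLCA2 guides. Over all genes 6.73% were higher and 3.05% lower with the POU2F3 guide, and 5.79% and 2.02% with both COLCA2 guides. SYT1 and SYT8 passed the minimum only through the targeted libraries, and SYT16 only through the COLCA2 libraries. Their higher values there follow from the choice and support nothing. SYT16 was the 1 gene called lower with the POU2F3 guide, from 7 reads in the control library to 0, too few for a fold. For SYT12, 131 reads were found in the control library, 962 and 1060 with COLCA2 guides 1 and 2, and 1100 with the POU2F3 guide. Its log2 ratios were 2.87 with the POU2F3 guide and 3.15 with the mean of the guides. Per length it stood at 2.27 units in the control library and between 16.5 and 21.3 in the targeted ones, above the 0.63 units that SYT1 reached. SYT8 had 5 reads in the control library, 20 and 43 with the guides and 22 with the POU2F3 guide. SYT13, the most abundant per length of those with a length in the control library at 6.05 units, had log2 ratios of 0.77 with the POU2F3 guide and 0.12 with the guides.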
